A study of Mus musculus with 14 samples.

Results

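Cholesterol and fatty acid synthesis genes were followed in mouse brain. The set holds 38 named genes of the 23375 in the expression table: 18 enzymes of sterol synthesis, 6 genes of the SREBP regulators and sterol transfer, 10 enzymes of fatty acid synthesis, and 4 lipid carriers and efflux genes. The genes were listed by name, and the rule takes no measured value, although the list was drawn up with earlier results of these data known. All 38 genes were found, Msmo1 under its older name Sc4mol, and all 38 passed the filter on low values (at least 1 FPKM in at least 2 libraries, 14322 genes). The sterol and the fatty acid arm are described apart.

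Cholesterol is built from acetyl-CoA through mevalonate, isoprenoid units, squalene and lanosterol. Little of it crosses the blood-brain barrier, so the brain makes its own, with neurons and glia both synthesising it around birth and astrocytes and myelinating oligodendrocytes taking a large share later. The transcription factor SREBP2 drives the sterol enzymes when membrane sterol is low, SREBP1 drives mainly the fatty acid enzymes, and SCAP and the INSIG proteins control whether either leaves the endoplasmic reticulum.

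Poly(A) RNA of brain samples was sequenced in mice made with haploid embryonic stem cells that carried deletions of imprinting control regions (differentially methylated regions, DMRs). At E19.5, the end of gestation, the groups were KO2 (H19-DMR and IG-DMR deleted), KO7 (DMRs of Igf2r, Peg3, Grb10, Kcnq1, Snrpn, Gnas and Nespas deleted) and wild type. In adults they were KO2 with its wild-type set 1, and KO3 (H19-, IG- and Rasgrf1-DMR deleted) with its wild-type set 2. Each group had 2 libraries, 14 in all. No age in weeks, strain or sex is given in the labels, and they do not say whether the 2 libraries of a group came from separate animals, so the p-values reflect only how far these libraries differ, and that spread may be technical. As background that the labels do not state, both genomes of KO2 and KO3 mice were maternal and both genomes of KO7 mice paternal, and this cannot be told apart from the deletions.

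Levels are FPKM, fragments scaled for transcript length and for the mapped fragments of the library. Read depth is unknown, and 12701 to 13398 genes per library reached 1 FPKM. A deletion of a control region leaves no transcript to read, but Rasgrf1 was low in KO2 (2.94 and 0.672 FPKM in E19.5 KO2 against 12.03 and 12.7 in E19.5 WT, and 19.7 and 14.8 in adult KO2 against 89.5 and 100.4 in adult WT set 1) and close to its wild type in adult KO3 (104 and 85.3 against 149 and 97.2). H19 had 35.0 and 38.2 FPKM in E19.5 KO2 and 95.7 and 87.7 in E19.5 KO7, against 15.97 and 24.3 in E19.5 WT. It was under 1 FPKM in every adult library. Igf2 had 35.1 and 38.4 FPKM in E19.5 KO2 and 108 and 93.6 in E19.5 KO7, against 37.6 and 65.5 in E19.5 WT. The Y-linked gene Ddx3y was present in both E19.5 KO7 libraries (7.72 and 7.07 FPKM) and listed at 0 in the other 12. Xist, made from an inactive X chromosome, was 1.498 FPKM in E19.5 KO2 replicate 1 and 84.01 in replicate 2, 0.0159 and 0.0402 in E19.5 KO7, and 117 and 106 in E19.5 WT. KO7 against WT is therefore also a comparison of libraries with and without Ddx3y, while E19.5 KO2 replicate 1 had neither Ddx3y nor the Xist level of its partner, and of the 38 genes Nsdhl and Ebp are X-linked. Earlier results of these data set 3 libraries apart, replicate 1 of E19.5 KO2 and the second libraries of adult KO3 and of adult WT set 2, and the fits were repeated without them. Neuron markers such as Snap25 and Tubb3 were present in every library, with the 8 neuron markers summing to 1855 to 3585 FPKM.

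The 38 genes lie on 17 chromosomes, with at most 5 on any of them. Promoters of 29 of the 38 genes could be matched in RefSeq (GRCm38.p6), and the 250 bases before the start were searched on both strands for CCAAT, the box bound by NF-Y, which acts together with SREBP, for 2 spellings of the sterol response element, ATCACNNCA and TCACNNCAC, and for the E-box CACGTG. These motifs were chosen after the promoters had been seen. CCAAT stood in 14 of 15 sterol enzyme promoters, 4 of 5 regulator promoters, 3 of 7 fatty acid enzyme promoters and 0 of 2 carrier promoters, against 37.5% of 27025 genes. ATCACNNCA stood before Cyp51, Msmo1 and Srebf2 (2.64% of all genes) and TCACNNCAC before Hmgcs1, Msmo1, Hsd17b7 and Dhcr7 (3.63% of all genes). CACGTG stood before 3 of the 15 sterol enzymes, Hsd17b7, Sc5d and Dhcr7, before 2 of 5 regulators, Scap and Insig1, 0 of 7 fatty acid enzymes and 1 of 2 carriers, Abca1, and before 6.86% of all genes. Acat2 was the sterol enzyme with none of the 4 motifs.

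The last 170 bases before the start are shown for genes on which the results below turn and for the regulator Srebf2, each on the gene's own strand, with matches to CCAAT or its reverse complement ATTGG and to the sterol response elements in capitals. In Msmo1 the middle CCAAT runs into both spellings of the sterol response element. Acat2 (chr17:12960726-12960895, minus strand), Hmgcs1 (chr13:119690181-119690350, plus strand), Idi1 (chr13:8885436-8885605, plus strand), Cyp51 (chr5:4104698-4104867, minus strand), Msmo1 (chr8:64733579-64733748, minus strand) and Srebf2 (chr15:82147099-82147268, plus strand) read:
Acat2: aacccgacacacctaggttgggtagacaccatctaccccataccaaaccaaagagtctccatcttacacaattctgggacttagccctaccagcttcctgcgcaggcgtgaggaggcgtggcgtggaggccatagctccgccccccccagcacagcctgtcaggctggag
Hmgcs1: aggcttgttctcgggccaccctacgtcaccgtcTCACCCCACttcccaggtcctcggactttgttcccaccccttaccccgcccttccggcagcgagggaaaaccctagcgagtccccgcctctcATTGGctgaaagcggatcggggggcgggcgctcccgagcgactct
Idi1: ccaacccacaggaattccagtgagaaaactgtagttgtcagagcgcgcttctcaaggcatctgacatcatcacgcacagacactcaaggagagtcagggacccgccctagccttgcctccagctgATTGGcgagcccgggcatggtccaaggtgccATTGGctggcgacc
Cyp51: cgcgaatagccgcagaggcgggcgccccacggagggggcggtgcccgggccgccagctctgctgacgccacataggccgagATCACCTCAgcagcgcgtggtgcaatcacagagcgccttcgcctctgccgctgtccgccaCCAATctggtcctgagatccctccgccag
Msmo1: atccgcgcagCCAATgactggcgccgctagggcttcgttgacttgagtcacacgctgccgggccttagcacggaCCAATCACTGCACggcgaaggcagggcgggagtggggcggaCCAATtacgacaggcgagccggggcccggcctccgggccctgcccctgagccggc
Srebf2: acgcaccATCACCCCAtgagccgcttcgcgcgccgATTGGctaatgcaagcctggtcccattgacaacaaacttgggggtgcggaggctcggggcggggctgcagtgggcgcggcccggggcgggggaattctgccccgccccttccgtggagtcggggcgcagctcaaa

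The sterol enzymes spanned a wide range of levels in brain. In E19.5 WT the most abundant per transcript length were Fdps, which makes farnesyl diphosphate (145 and 143 FPKM), and Hmgcs1, which makes HMG-CoA (114 and 115 FPKM). The least abundant were Hsd17b7, a sterol keto-reductase (7.99 and 7.58 FPKM), and Ebp, a sterol isomerase (6.62 and 7.53 FPKM). Among the fatty acid genes the desaturase Scd2 (206 and 198 FPKM), Fads2 (145 and 144 FPKM), which desaturates polyunsaturated fatty acids, and the fatty acid synthase Fasn (132 and 119 FPKM) led. Apoe, the main apolipoprotein of brain, was the highest of all 38 genes, at 410.2 and 587 FPKM. No library listed any of the 38 genes at 0.

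The first question was how the lipid genes of KO2 brains stand relative to wild type at E19.5. Sterol synthesis enzymes were lower along most of the pathway. The median sterol enzyme level was 22.2 and 23.2 FPKM in the KO2 libraries, against 32.8 and 32.2 FPKM in the WT libraries, and the 18 enzymes summed to 503 and 541 FPKM in KO2 against 788 and 761 FPKM in WT. In 15 of 18 enzymes both KO2 libraries lay below both WT libraries, against 29.9% of all tested genes. Fitted changes were below 0 in 17 of 18, with a median log2 change of -0.59 against -0.0057 over all tested genes. Over all genes tested, 3 of the 18 passed as lower and 0 as higher, against 0.398% of all genes passing as lower (limma on log2(FPKM + 1), adjusted p under 0.05).

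**Figure D1:**
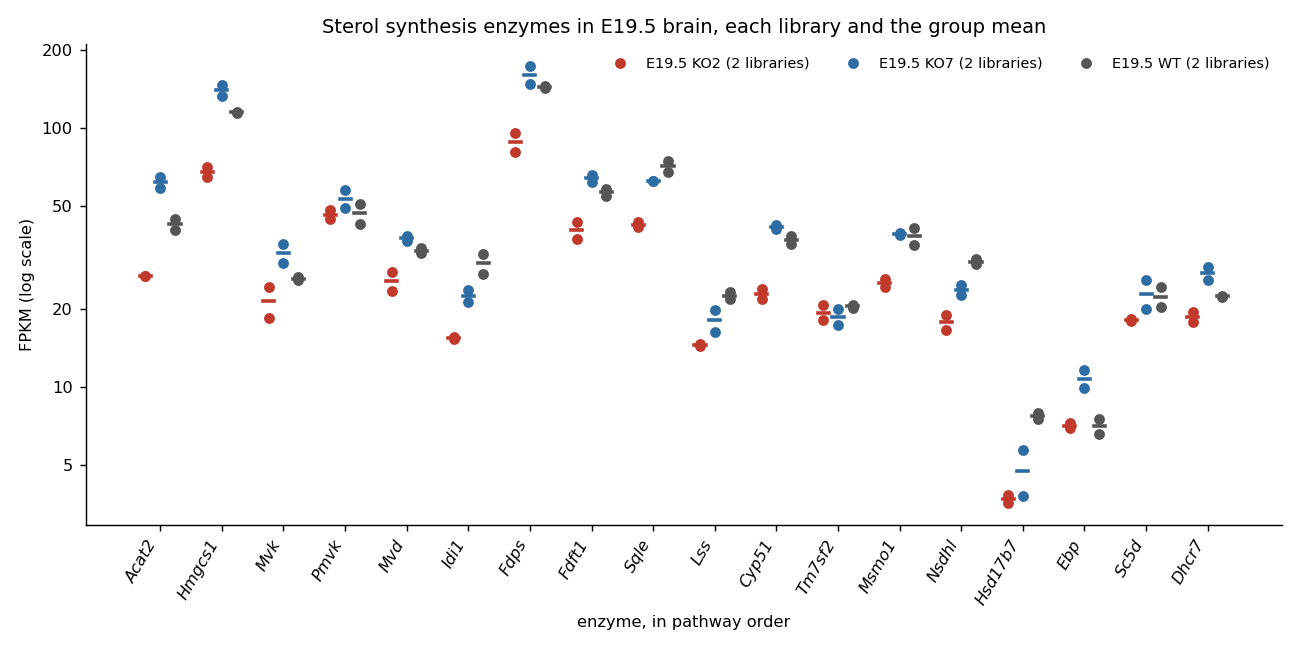
FPKM (log axis) of the 18 sterol synthesis enzymes in the 2 libraries (points) of E19.5 KO2, E19.5 KO7 and E19.5 WT, in pathway order, with horizontal lines at the group means. KO2 libraries lie below both WT libraries in 15 enzymes, and overlap them in Pmvk, Tm7sf2 and Ebp.

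Acat2, the cytosolic thiolase that joins 2 acetyl-CoA units at the entry of the pathway, had 26.8 and 26.8 FPKM in KO2 libraries, against 44.7 and 40.5 FPKM in WT libraries. It fell by 0.65 on the log2 scale (SE 0.13, adjusted p = 0.0354), and the KO2 libraries were nearly identical and well below either WT library. Acat2 has a tandem paralog, Acat3, between which reads may have been split, and their sum was 31.3 and 35.9 FPKM in KO2 against 49.6 and 45.5 FPKM in WT. Sqle, the squalene epoxidase and a rate-limiting step, had 41.4 and 43.5 FPKM in KO2, against 74.4 and 67.9 FPKM in WT. Its log2 change was -0.73 (SE 0.15, adjusted p = 0.0389). Cyp51, the lanosterol demethylase, had 23.9 and 21.9 FPKM in KO2, against 38.3 and 35.6 FPKM in WT, with a log2 change of -0.67 (SE 0.13, adjusted p = 0.0356).

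Other enzymes did not pass although their libraries lay apart. Idi1, which isomerises isopentenyl diphosphate, had 15.4 and 15.6 FPKM in KO2 and 32.7 and 27.5 FPKM in WT (log2 change -0.91, SE 0.20, adjusted p = 0.0539). Hsd17b7 had 3.86 and 3.59 FPKM in KO2 and 7.99 and 7.58 FPKM in WT (log2 change -0.89, adjusted p = 0.0692). Neither gene overlapped between the groups, and the ratio of means was 0.515 for Idi1 and 0.478 for Hsd17b7. Hmgcs1 had 64.5 and 70.9 FPKM in KO2 and 114 and 115 FPKM in WT (log2 change -0.76, adjusted p = 0.0866). Msmo1, the sterol C4-methyl oxidase, had 24.3 and 26.1 FPKM in KO2 and 41.05 and 35.5 FPKM in WT (log2 change -0.58, adjusted p = 0.0545). Nsdhl, the X-linked sterol dehydrogenase that acts after Msmo1, had 16.7 and 19.01 FPKM in KO2 and 31.3 and 29.9 FPKM in WT (log2 change -0.75, adjusted p = 0.117).

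Of the remaining sterol enzymes, Fdps (-0.71), Lss, the lanosterol synthase (-0.60), Fdft1, the squalene synthase (-0.47), Mvd (-0.38), Mvk (-0.29), Sc5d (-0.28) and Dhcr7 (-0.25) all had KO2 libraries below both WT libraries without passing. Pmvk, the phosphomevalonate kinase, had 48.2 and 44.5 FPKM in KO2 and 42.6 and 51.04 FPKM in WT. Tm7sf2, a sterol reductase, had 20.7 and 18.1 FPKM in KO2 and 20.7 and 20.3 FPKM in WT, and Ebp had 6.95 and 7.27 FPKM in KO2 and 6.62 and 7.53 FPKM in WT. These 3 enzymes overlapped between the groups. In bulk samples, fewer cells of a type and less RNA per cell cannot be told apart.

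The regulators did not pass, and limma gave 0 calls among the 6. An unadjusted p under 0.05 was seen in 3, against 2305 of the 14322 tested genes. Insig1, an SREBP target that retains SCAP, had 19.6 and 26.00 FPKM in KO2, against 39.4 and 32.4 FPKM in WT (log2 change -0.64, adjusted p = 0.182). Stard4, a cytosolic sterol transfer protein, had 4.68 and 4.598 FPKM in KO2 and 7.93 and 6.32 FPKM in WT (log2 change -0.52, adjusted p = 0.287). Srebf2 itself was at 54.7 and 51.4 FPKM in KO2 and 69.3 and 65.03 FPKM in WT (-0.33, adjusted p = 0.447). KO2 libraries lay above WT for Srebf1, with 12.9 and 14.8 FPKM in KO2 and 9.93 and 10.8 FPKM in WT (0.39, adjusted p = 0.204), and for Scap (0.18). Insig2, at 11.6 and 8.74 FPKM in KO2 and 9.06 and 9.39 FPKM in WT, overlapped.

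The fatty acid arm gave 0 calls in limma (2 of 10 at an unadjusted p under 0.05, against 2305 of the 14322 tested genes). KO2 libraries lay below both WT libraries in 6 of 10 enzymes and above in 0, against 29.9% and 27.3% of all tested genes. The median log2 change was -0.23, against -0.0057 over all tested genes. Elovl6, which elongates palmitate, had 12.9 and 12.3 FPKM in KO2, against 19.47 and 18.1 FPKM in WT (log2 change -0.54, adjusted p = 0.205). Acaca, the acetyl-CoA carboxylase that commits carbon to fatty acids, had 24.8 and 22.8 FPKM in KO2 and 35.9 and 31.5 FPKM in WT (-0.48, adjusted p = 0.281). Fasn had 101 and 90.7 FPKM in KO2 and 132 and 119 FPKM in WT (-0.39, adjusted p = 0.34). Acly, which makes cytosolic acetyl-CoA from citrate, Scd2 and Fads1 also had separate libraries, at log2 changes of -0.34, -0.19 and -0.09. Acss2, Me1, Scd1 and Fads2 overlapped, with changes between -0.27 and 0.02.

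The carriers lay in the other direction. Apoe had 1072 and 1231 FPKM in KO2, against 410.2 and 587 FPKM in WT, a ratio of means of 2.31 (log2 change 1.23, SE 0.33, adjusted p = 0.112). It did not pass here, and passed with quantile scaling (adjusted p = 0.0315). The sterol efflux transporters Abcg1 (7.02 and 7.29 FPKM in KO2, 4.93 and 5.13 FPKM in WT) and Abca1 (16.4 and 13.9 FPKM in KO2, 10.3 and 11.7 FPKM in WT) also had KO2 libraries above WT without passing. Lpl, the lipoprotein lipase, overlapped, with 14.1 and 11.4 FPKM in KO2 and 13.9 and 11.5 FPKM in WT. Separate libraries in the higher direction were seen in 3 of the 4 genes, against 27.3% of all tested genes.

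Of 29 other sterol pathway genes 1 passed, as higher, and of 30 other fatty acid pathway genes 1 passed, as higher, against 0.880% of all tested genes. Lcat, which esterifies cholesterol on lipoproteins, had 8.40 and 5.98 FPKM in KO2, against 2.50 and 2.91 FPKM in WT (log2 change 1.13, adjusted p = 0.0236). Acsbg1, an acyl-CoA synthetase of brain, had 26.3 and 24.2 FPKM in KO2, against 13.01 and 14.3 FPKM in WT (log2 change 0.84, adjusted p = 0.0456).

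Astrocyte, myelin and red cell markers lay in the opposite direction to the sterol enzymes, in a comparison where 0.880% of all tested genes passed as higher. All 10 astrocyte markers had fitted changes above 0 and 1 passed (Aldoc), their sum being 561 and 521 FPKM in KO2 against 254 and 303 FPKM in WT. All 10 oligodendrocyte and myelin markers were above 0 and 3 passed, with sums of 185 and 103 FPKM in KO2 against 42.6 and 51.9 FPKM in WT. The 5 tested red cell genes were above 0 and 2 passed, with sums of 405 and 738 FPKM in KO2 against 95.01 and 519.5 FPKM in WT. Other lists were mixed or had no call. Microglia markers were above 0 in 4 and below in 2, and endothelial and pericyte markers in 6 and 2, with 1 passing as higher in each. Fits above and below 0 numbered 5 and 1 for oligodendrocyte precursors, 5 and 3 for neurons and 6 and 0 for choroid plexus. They numbered 3 and 3 for dividing cells and 1 and 5 for meninges, and 0 passed in these 5 lists. The part of these markers in the sterol result was not tested. Leaving out any 1 of the 4 libraries gave a median log2 change of the sterol enzymes between -0.66 and -0.52. The calls of Acat2, Sqle and Cyp51 held in 7, 7 and 9 of 14 alternative settings. A fit to the E19.5 libraries alone called 10 sterol enzymes (Acat2, Hmgcs1, Idi1, Fdps, Sqle, Lss, Cyp51, Msmo1, Nsdhl and Hsd17b7). In that fit 364 of the 14322 tested genes were called, 134 of them as lower.

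E19.5 KO7 was compared with the same 2 WT libraries, so the KO2 and KO7 comparisons share their reference. In KO7 the sterol arm stood near or somewhat above wild type. The median sterol enzyme level was 37.2 and 33.4 FPKM in KO7, against 32.8 and 32.2 FPKM in WT, and the median log2 change was 0.15 against 0.0050 over all tested genes. Of the 18 enzymes 2 passed as higher and 0 as lower, against 3.02% of all tested genes passing as higher and 1.43% as lower. KO7 libraries lay above both WT libraries in 9 enzymes and below both in 6, against 30.7% and 29.6% of all tested genes.

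Acat2 had 64.7 and 58.7 FPKM in KO7, against 44.7 and 40.5 FPKM in WT (log2 change 0.52, SE 0.13, adjusted p = 0.0434). Its paralog Acat3 had 13.4 and 12.9 FPKM in KO7 and 4.84 and 5.03 FPKM in WT. Ebp, X-linked, had 11.6 and 9.91 FPKM in KO7, against 6.62 and 7.53 FPKM in WT (log2 change 0.54, SE 0.14, adjusted p = 0.0494). The pathway did not move as a block. Hmgcs1 had 133 and 147 FPKM in KO7 and 114 and 115 FPKM in WT (0.28, adjusted p = 0.425). Hsd17b7 lay on the other side, with 3.82 and 5.72 FPKM in KO7 and 7.99 and 7.58 FPKM in WT (-0.63, adjusted p = 0.117), as did Idi1, with 21.3 and 23.7 FPKM in KO7 and 32.7 and 27.5 FPKM in WT (-0.40, adjusted p = 0.271). Lss, Nsdhl, Sqle and Tm7sf2 also had both KO7 libraries below WT, at -0.31, -0.35, -0.18 and -0.13.

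No regulator and no fatty acid enzyme passed in limma in KO7 against WT. At an unadjusted p under 0.05 there were 2 of 6 and 0 of 10, against 3026 of the 14322 tested genes. Srebf1 had 14.4 and 13.1 FPKM in KO7, against 9.93 and 10.8 FPKM in WT (0.38, adjusted p = 0.153), and Insig2 had 11.2 and 12.8 FPKM in KO7 against 9.06 and 9.39 FPKM in WT (0.34, adjusted p = 0.174). Fasn, Acaca and Elovl6 had both KO7 libraries below WT, at -0.33, -0.31 and -0.33, and Acly, Acss2, Fads1 and Fads2 above it, at 0.11 to 0.19. The fatty acid arm's median log2 change was 0.053, and -0.025 with quantile scaling.

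The carrier group held the largest KO7 change of the 38 genes. Lpl, which releases fatty acids from lipoproteins, had 4.95 and 4.29 FPKM in KO7, against 13.9 and 11.5 FPKM in WT, a ratio of means of 0.364. It fell by 1.28 on the log2 scale (SE 0.24, adjusted p = 0.0167), and the groups were far from overlapping. Lpl passed in 10 of 14 alternative settings and in none of the 4 that left out a single KO7 or WT library. Apoe had 713 and 386 FPKM in KO7 and 410.2 and 587 FPKM in WT and overlapped. Of the other sterol pathway genes 3 of 29 passed as higher (Npc2, a lysosomal cholesterol carrier, Stard3 and the oxysterol receptor Nr1h2, at 0.56, 0.52 and 0.74) and of the other fatty acid genes 3 of 30 (Fabp5, Pcx and Thrsp, at 0.79, 0.71 and 0.98), against 3.02% of all tested genes.

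Markers of other cells moved with KO7 too, in a comparison where 3.02% of all tested genes passed as higher. Of 6 meningeal genes 5 passed as higher, with sums of 147 and 124 FPKM in KO7 against 45.9 and 59.9 FPKM in WT. Of 6 genes of dividing cells 4 passed as higher, with sums of 118 and 122 FPKM in KO7 against 87.3 and 85.7 FPKM in WT. Endothelial and pericyte genes passed as higher in 3 of 8, with sums of 199.8 and 163 FPKM in KO7 against 90.1 and 101 FPKM in WT. Their part in the KO7 values was not tested, and sex pattern cannot be told apart from genotype. Without any 1 of the 4 libraries the sterol median log2 change in KO7 was between 0.099 and 0.16. The calls of Acat2 and Ebp held in 7 and 5 of 14 alternative settings.

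Set directly against each other, KO7 and KO2 differed across the sterol arm. Of 18 enzymes 8 passed as higher in KO7 and 0 as lower, against 3.23% and 2.40% of all tested genes. KO7 libraries lay above both KO2 libraries in 16 of 18, against 30.8% of all tested genes, and the median log2 change was 0.53 against 0.015 over all tested genes. This comparison shares the KO2 libraries with KO2 against WT and the KO7 libraries with KO7 against WT.

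Acat2 showed the largest sterol difference, with 64.7 and 58.7 FPKM in KO7 and 26.8 and 26.8 FPKM in KO2 (log2 change 1.17, SE 0.13, adjusted p = 0.00078), and it passed in all 14 alternative settings. Hmgcs1 had 133 and 147 FPKM in KO7, against 64.5 and 70.9 FPKM in KO2 (1.03, SE 0.19, adjusted p = 0.0113). Fdps had 174 and 148 FPKM in KO7, against 80.5 and 95.8 FPKM in KO2 (0.86, adjusted p = 0.0225). None of these enzymes overlapped between the groups, with ratios of means of 2.30 for Acat2, 2.07 for Hmgcs1 and 1.82 for Fdps. Cyp51 had 40.7 and 42.5 FPKM in KO7, against 23.9 and 21.9 FPKM in KO2 (0.83, adjusted p = 0.00542), and passed in 13 of 14 settings. Fdft1 (0.65), Msmo1 (0.61), Mvd, the mevalonate diphosphate decarboxylase (0.53), and Ebp (0.53) passed at adjusted p = 0.0167, 0.0204, 0.037 and 0.0463. Tm7sf2 and Hsd17b7 overlapped between KO7 and KO2.

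In the fatty acid arm 0 of 10 passed in limma between KO7 and KO2. At an unadjusted p under 0.05 there was 1, against 3189 of the 14322 tested genes. All 10 fitted changes were above 0, at 0.06 to 0.47. The carriers ran the other way, with both KO7 libraries below both KO2 libraries in all 4, against 27.3% of all tested genes, and 1 past the threshold, against 2.40%. Lpl had a log2 change of -1.29 (SE 0.24, adjusted p = 0.0133) and passed in 10 of 14 settings. Apoe was at 713 and 386 FPKM in KO7 and 1072 and 1231 FPKM in KO2 (-1.13, adjusted p = 0.0734), which passed with quantile scaling. Astrocyte markers passed as lower in 5 of 10 and myelin markers as lower in 5 of 10 and higher in 1. Meningeal and dividing cell markers passed as higher in 5 of 6 each. Endothelial and pericyte markers passed as higher in 3 of 8 and as lower in 1, and neuron markers as lower in 1 of 8. Over all tested genes 3.23% passed as higher and 2.40% as lower. Such markers too differed between these groups, and their part was not tested. Leaving out 1 library gave a sterol median log2 change between 0.49 and 0.59. The sterol calls other than Acat2 and Cyp51 held in 6 (Ebp) to 10 (Hmgcs1) of 14 alternative settings.

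**Figure D2:**
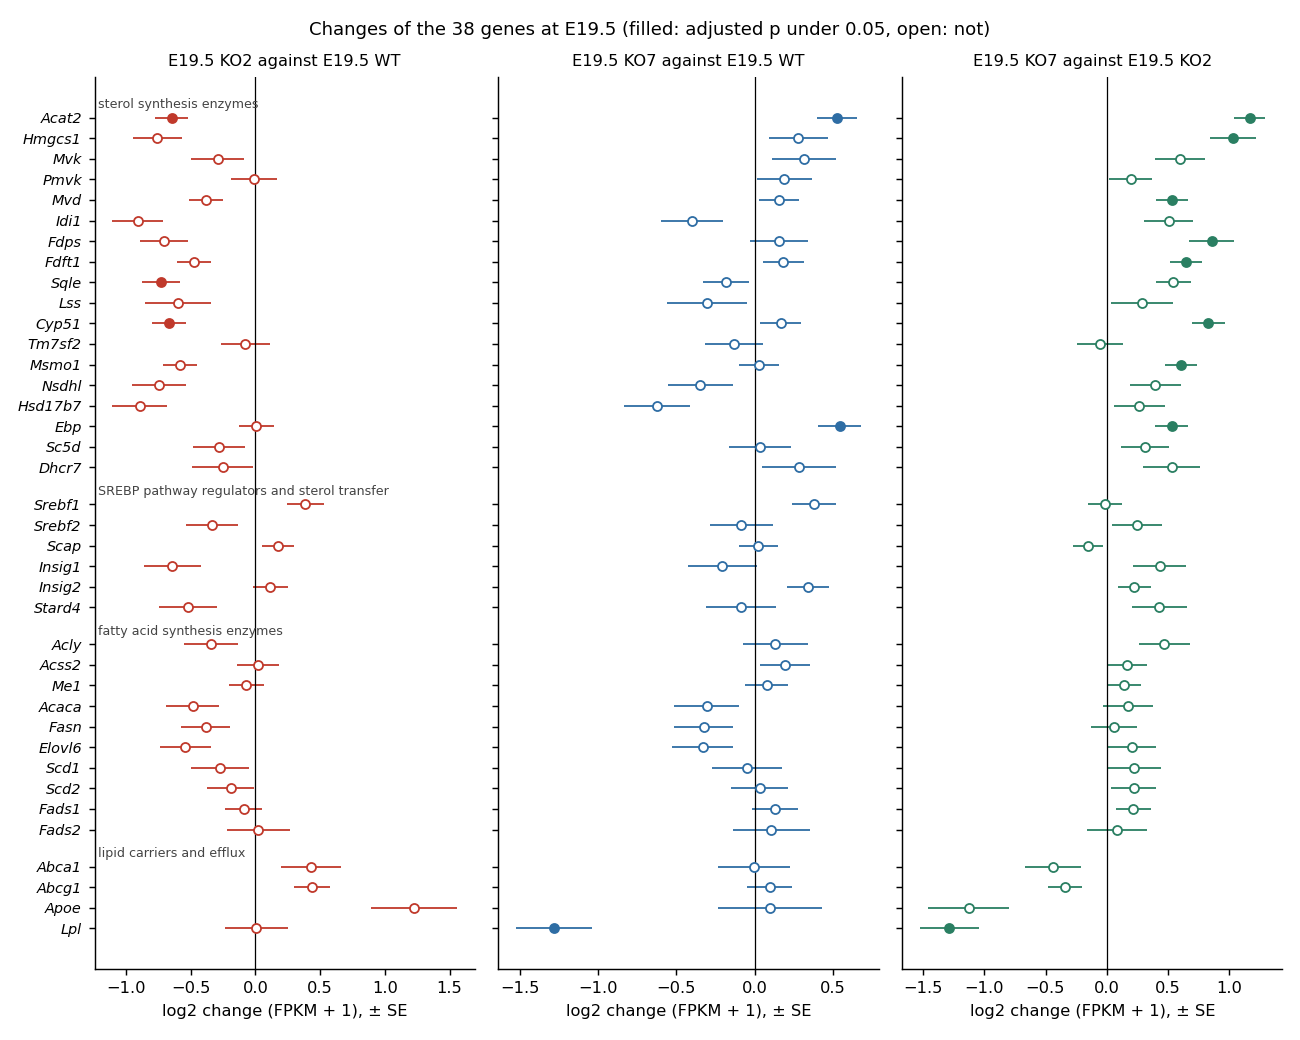
Log2 change on the FPKM + 1 scale (horizontal axis, bars ± SE of the fit) of the 38 genes by role group for KO2 against WT, KO7 against WT and KO7 against KO2 at E19.5, with 2 libraries per group. Sterol enzymes lie left of 0 in 17 of 18 rows for KO2 against WT and right of 0 in 17 of 18 rows for KO7 against KO2, and Lpl is at -1.28 and -1.29 in the KO7 panels.

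Between E19.5 and adulthood the sterol arm fell in wild type. The median sterol enzyme level was 15.1 and 16.3 FPKM in adult WT set 1, against 32.8 and 32.2 FPKM in E19.5 WT, and the 18 enzymes summed to 365 and 373 FPKM in adults against 788 and 761 FPKM at E19.5. Of 18 enzymes 13 passed as lower and 1 as higher in adults, against 34.1% of all tested genes passing as lower and 21.9% as higher. Libraries lay apart, lower in adults, in 15 enzymes and higher in 1, against 49.9% and 34.2% of all tested genes. The median log2 change was -0.94 against -0.15 over all tested genes, and that over all tested genes came to -0.028 with median-of-ratios scaling and -0.072 with quantile scaling. The sterol median was -0.80 under both of these scalings, and all 14 sterol calls held in all 13 settings tried.

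**Figure D3:**
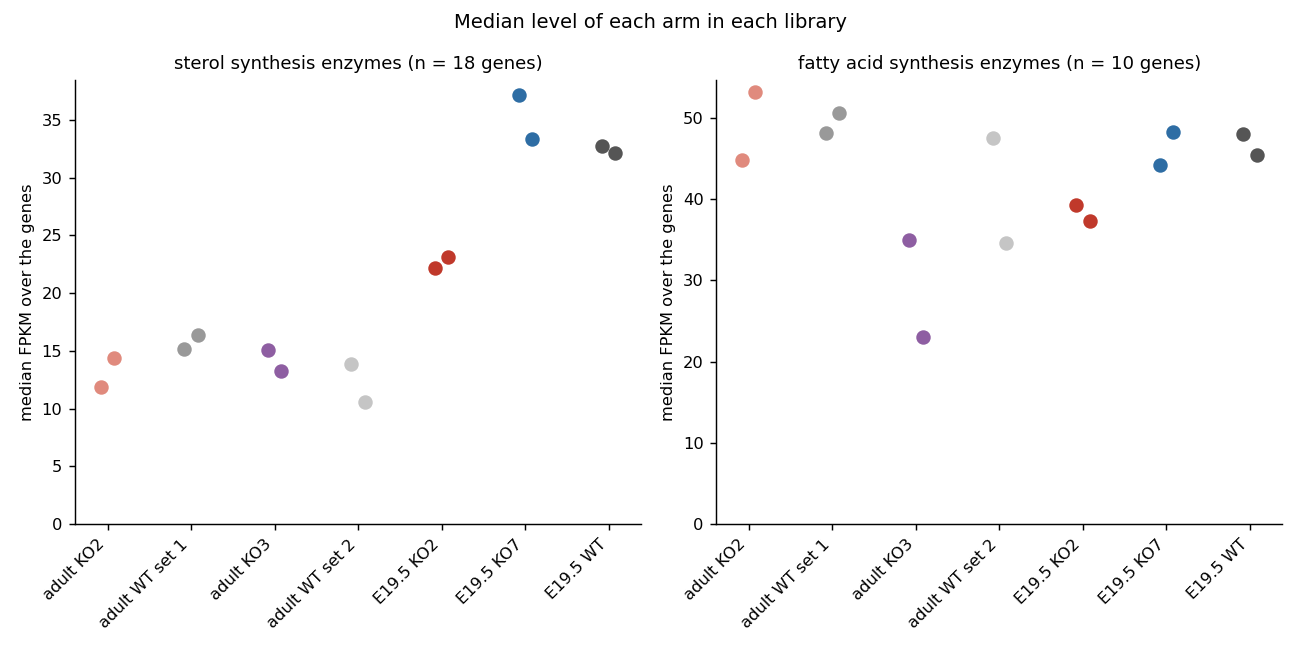
Median FPKM over the 18 sterol enzymes (left) and the 10 fatty acid enzymes (right) in each of the 14 libraries, 1 point per library, by group. Sterol medians are 10.5 to 16.3 FPKM in all 8 adult libraries, 22.2 and 23.2 FPKM in E19.5 KO2, and 32.2 to 37.2 FPKM in the other 4 E19.5 libraries, and fatty acid medians show no such division.

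Acat2 fell furthest among the sterol enzymes, with 9.78 and 11.3 FPKM in adult WT set 1, against 44.7 and 40.5 FPKM in E19.5 WT (log2 change -1.92, SE 0.13, adjusted p = 5.35e-07). Fdps had 46.9 and 43.8 FPKM in adults, against 145 and 143 FPKM at E19.5 (-1.65, adjusted p = 2.33e-05). Sqle had 21.96 and 24.1 FPKM in adults, against 74.4 and 67.9 FPKM at E19.5 (-1.58, adjusted p = 5.23e-06). The stages were far apart in these 3 enzymes of the early and middle pathway, with ratios of means of 0.247, 0.315 and 0.324. Hmgcs1 (-1.40), Nsdhl (-1.36), Cyp51 (-1.30), Lss (-1.21), Mvd (-1.01), Mvk (-0.998), Tm7sf2 (-0.88), Fdft1 (-0.86), Idi1 (-0.83) and Hsd17b7 (-0.83) also fell.

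Of the enzymes after lanosterol, Cyp51, Nsdhl, Tm7sf2 and Hsd17b7 were among those that fell, while Msmo1, Sc5d and Dhcr7 did not pass and Ebp rose. Msmo1 had 41.4 and 38.3 FPKM in adult WT set 1 and 41.05 and 35.5 FPKM at E19.5 (log2 change 0.06, SE 0.13, adjusted p = 0.719), and its libraries overlapped. Sc5d, the lathosterol oxidase, had 20.4 and 22.5 FPKM in adults and 24.3 and 20.4 FPKM at E19.5 (-0.06, adjusted p = 0.827). Ebp rose, with 11.7 and 10.5 FPKM in adults, against 6.62 and 7.53 FPKM at E19.5 (0.59, SE 0.14, adjusted p = 0.00356). Dhcr7, the last enzyme measured, had 14.5 and 16.1 FPKM in adults and 22.6 and 22.3 FPKM at E19.5 (-0.53, adjusted p = 0.0764), and its adult libraries lay below both E19.5 libraries.

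In the fatty acid arm 4 of 10 enzymes passed as higher and 4 as lower, against 21.9% and 34.1% of all tested genes. The 8 calls became 6 with quantile scaling and 7 with median-of-ratios scaling. Leaving out either E19.5 WT library or adult WT set 1 replicate 2 left 5 calls, and leaving out adult WT set 1 replicate 1 left 6. Scd1, the stearoyl-CoA desaturase, had 59.9 and 66.9 FPKM in adult WT set 1, against 18.4 and 15.00 FPKM at E19.5 (log2 change 1.87, SE 0.22, adjusted p = 3.44e-05). Acss2, which makes acetyl-CoA from acetate, had 19.2 and 20.5 FPKM in adults, against 7.62 and 7.27 FPKM at E19.5 (1.31, SE 0.16, adjusted p = 4.02e-05). Both stood clear of all E19.5 libraries, and Scd2 (0.58) and Fads1 (0.43) rose as well, at adjusted p = 0.0175 and 0.026. Acaca had 11.99 and 12.6 FPKM in adults, against 35.9 and 31.5 FPKM at E19.5 (-1.38, adjusted p = 0.000185). Fasn had 53.6 and 52.1 FPKM in adults, against 132 and 119 FPKM at E19.5 (-1.23, adjusted p = 0.000213). Elovl6 (-0.83) and Acly (-0.54) fell at adjusted p = 0.00395 and 0.0438. Fads2 (88.0 to 101 FPKM in adults, 144 to 145 FPKM at E19.5) and Me1 did not pass, with adult libraries below both E19.5 libraries. The paralogs Scd1 and Scd2 are alike in sequence and the counting of shared reads is not stated.

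Among regulators, Srebf1 (0.72, adjusted p = 0.00111) and Insig2 (0.73, adjusted p = 0.000738) rose in the adult, while Srebf2, Scap, Insig1 and Stard4 did not pass and ranged from -0.21 to -0.01. Of the carriers, Apoe had 1858 and 2020.1 FPKM in adult WT set 1, against 410.2 and 587 FPKM at E19.5 (1.98, adjusted p = 0.000428), and Abcg1 had 14.05 and 15.7 FPKM in adults against 4.93 and 5.13 FPKM at E19.5 (1.40, adjusted p = 1.09e-05). Abca1 (-0.74, adjusted p = 0.0168) and Lpl (-0.86, adjusted p = 0.0108) fell. Of the other sterol pathway genes 12 of 29 rose and 6 fell, against 21.9% and 34.1% of all tested genes. Among them the cholesterol 24-hydroxylase Cyp46a1 had 121 and 101 FPKM in adults against 19.1 and 19.6 FPKM at E19.5 (2.45, adjusted p = 1.2e-07), and Lcat rose by 2.71. Of 30 other fatty acid pathway genes 12 rose and 9 fell, against the same 2 shares, among them Acsbg1 (2.55) and the progenitor fatty acid binding protein Fabp7 (-3.48). Cell type markers also changed with stage: the 10 myelin markers all passed as higher, summing to 2585 and 3400.0 FPKM in adult WT set 1 against 42.6 and 51.9 FPKM in E19.5 WT, and the 6 markers of dividing cells all passed as lower. Their part in the stage differences was not tested.

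The same stage comparison within KO2 started from a lower E19.5 level. The median sterol enzyme level was 11.9 and 14.4 FPKM in adult KO2, against 22.2 and 23.2 FPKM in E19.5 KO2. Of 18 enzymes 10 passed as lower and 2 as higher, against 28.6% and 20.7% of all tested genes, with a median log2 change of -0.63 against -0.093 over all tested genes. Libraries lay apart, lower in adults, in 13 enzymes and higher in 4, against 46.5% and 34.5% of all tested genes. Acat2 had 11.3 and 12.8 FPKM in adult KO2, against 26.8 and 26.8 FPKM in E19.5 KO2 (-1.09, adjusted p = 4.01e-05). Msmo1 rose, with 40.4 and 45.1 FPKM in adult KO2, against 24.3 and 26.1 FPKM in E19.5 KO2 (0.74, adjusted p = 0.000651), as did Ebp (0.78, adjusted p = 0.000758). Idi1, with 13.8 and 15.6 FPKM in adult KO2 and 15.4 and 15.6 FPKM in E19.5 KO2, overlapped between stages. In the fatty acid arm Scd1 (2.33), Acss2 (1.33), Scd2 (0.82) and Fads1 (0.52) rose and Fasn (-0.99) and Acaca (-0.86) fell. Apoe had 1645 and 1712 FPKM in adult KO2 and 1072 and 1231 FPKM in E19.5 KO2 (0.55, adjusted p = 0.196, and 0.85, adjusted p = 0.00547, with quantile scaling).

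**Figure D4:**
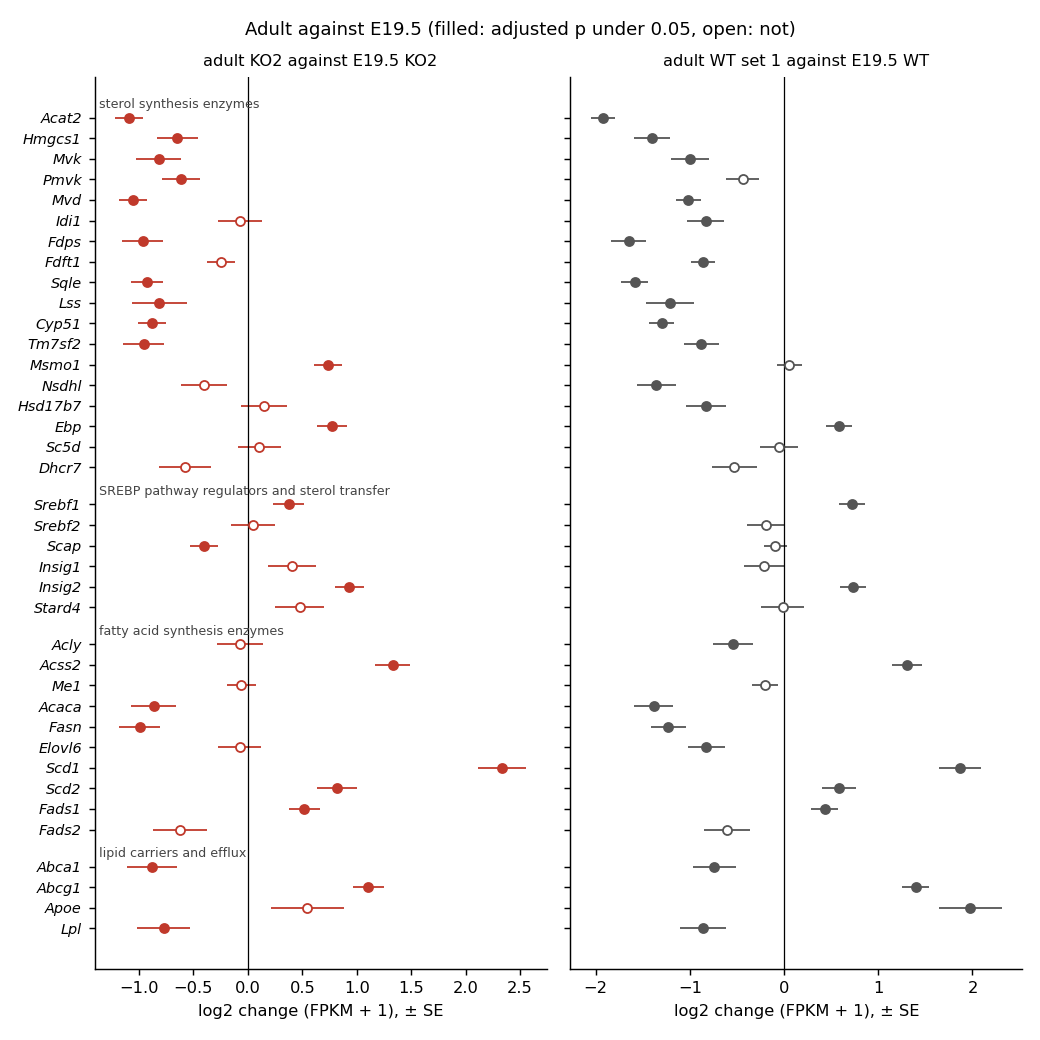
Log2 change on the FPKM + 1 scale (horizontal axis, bars ± SE of the fit) from adult against E19.5 libraries for KO2 (left) and wild type (right, adult set 1), for the 38 genes by role group, with 2 libraries per group. Most sterol enzymes lie left of 0 in both panels, and Ebp lies right of 0 in both (0.78 and 0.59). In both panels the fatty acid rows part into 4 on the right (Scd1, Acss2, Scd2 and Fads1) and 6 on the left (Acaca, Fasn, Elovl6, Acly, Fads2 and Me1).

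The difference between the KO2 effect in adults and at E19.5 was tested directly. Of the 38 genes 0 passed in limma, against 0.0349% and 0.0279% of all tested genes passing as higher and lower. An unadjusted p under 0.05 was seen in 10 of the 18 sterol enzymes, against 2118 of the 14322 tested genes. The sterol arm's median difference was 0.52 (0.044 over all tested genes), which says that its KO2 effect was less negative in adults. Acat2 came nearest, with a difference of 0.83 (SE 0.18, adjusted p = 0.09). Hsd17b7 (0.98), Nsdhl (0.95), Idi1 (0.76), Hmgcs1 (0.75) and Msmo1 (0.68) had adjusted p-values between 0.144 and 0.256.

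In adult KO2 against adult WT set 1 the lipid genes were close to wild type. The median sterol enzyme level was 11.9 and 14.4 FPKM in KO2, against 15.1 and 16.3 FPKM in WT set 1. None of the 38 genes passed in limma, against 0.105% of all tested genes passing as higher and 0.0489% as lower. An unadjusted p under 0.05 was seen in 2 of the 38 (1 sterol enzyme and 1 regulator), against 1051 of the 14322 tested genes. The median log2 change was -0.090 for the sterol arm and 0.045 for the fatty acid arm, against 0.043 over all tested genes. The lowest adjusted p was that of Mvd, with 11.1 and 12.5 FPKM in KO2 and 15.8 and 16.5 FPKM in WT set 1 (log2 change -0.42, SE 0.13, adjusted p = 0.434). Acat2, at 11.3 and 12.8 FPKM in KO2 and 9.78 and 11.3 FPKM in WT set 1, lay above its wild type (0.18, adjusted p = 0.835), Cyp51 below (-0.25, adjusted p = 0.735), and Sqle overlapped (20.2 and 23.7 FPKM in KO2, 21.96 and 24.1 FPKM in WT set 1). The sum of Acat2 and Acat3 overlapped as well, at 18.46 and 20.64 FPKM in KO2 and 18.07 and 18.55 FPKM in WT set 1. KO2 libraries lay below both WT libraries in 7 of 18 sterol enzymes and above in 3, against 16.2% and 30.0% of all tested genes. Apoe had 1645 and 1712 FPKM in KO2 and 1858 and 2020.1 FPKM in WT set 1 (-0.21, adjusted p = 0.952).

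Adult KO3 was compared with adult WT set 2, the wild-type set whose deposited values have the same form. In this comparison 13.9% of all tested genes passed as higher and 8.20% as lower (1990 and 1174 genes, or 1609 and 1808 with quantile scaling and 2023 and 1791 with median-of-ratios scaling). The number of genes that passed was 6780 without KO3 replicate 1, 297 without KO3 replicate 2, 8 without WT set 2 replicate 1 and 613 without WT set 2 replicate 2, and without the 3 libraries set apart 85 did. The sterol arm was divided, with 4 of 18 enzymes passing as higher and 0 as lower. KO3 libraries lay above both WT libraries in 7 and below both in 2, against 29.2% and 26.1% of all tested genes. Pmvk had 30.4 and 45.7 FPKM in KO3, against 17.8 and 18.9 FPKM in WT set 2 (log2 change 0.99, SE 0.18, adjusted p = 0.0101). Fdps had 56.7 and 86.2 FPKM in KO3, against 40.1 and 34.1 FPKM in WT set 2 (0.90, SE 0.19, adjusted p = 0.013). In both genes KO3 replicate 2 was the higher KO3 library, but replicate 1 also lay above WT set 2. Acat2 had 15.6 and 15.7 FPKM in KO3, against 11.1 and 8.99 FPKM in WT set 2 (0.60, adjusted p = 0.014), and Tm7sf2 (0.59) passed at adjusted p = 0.0447.

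The later steps of the pathway were mixed. Tm7sf2, one of them, passed as higher, and Ebp had 14.5 to 14.9 FPKM in KO3 against 9.78 to 12.3 FPKM in WT set 2. Dhcr7 and Lss had fitted changes below 0 without passing. Dhcr7 had 8.98 and 4.23 FPKM in KO3 and 10.4 and 9.32 FPKM in WT set 2 (-0.59, adjusted p = 0.0898). Lss had 4.45 and 2.06 FPKM in KO3 and 7.26 and 4.34 FPKM in WT set 2 (-0.70, adjusted p = 0.0668), and the groups overlapped. Srebf2 fell, with 34.9 and 19.503 FPKM in KO3, against 49.5 and 43.6 FPKM in WT set 2 (-0.81, SE 0.20, adjusted p = 0.0225). In the fatty acid arm 3 of 10 passed as lower and 0 as higher, against 8.20% and 13.9% of all tested genes. Fasn had 26.5 and 17.5 FPKM in KO3, against 42.8 and 32.2 FPKM in WT set 2 (-0.76, adjusted p = 0.022), Acaca had 9.38 and 5.25 FPKM in KO3 against 14.2 and 11.5 FPKM in WT set 2 (-0.78, adjusted p = 0.0268), and Fads2 had 55.5 and 26.9 FPKM in KO3 against 68.8 and 63.3 FPKM in WT set 2 (-0.75, adjusted p = 0.0483). In each of these the lowest library was KO3 replicate 2. Apoe had 1633 and 2870.2 FPKM in KO3, against 891 and 941 FPKM in WT set 2 (1.24, SE 0.33, adjusted p = 0.0272).

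**Figure D5:**
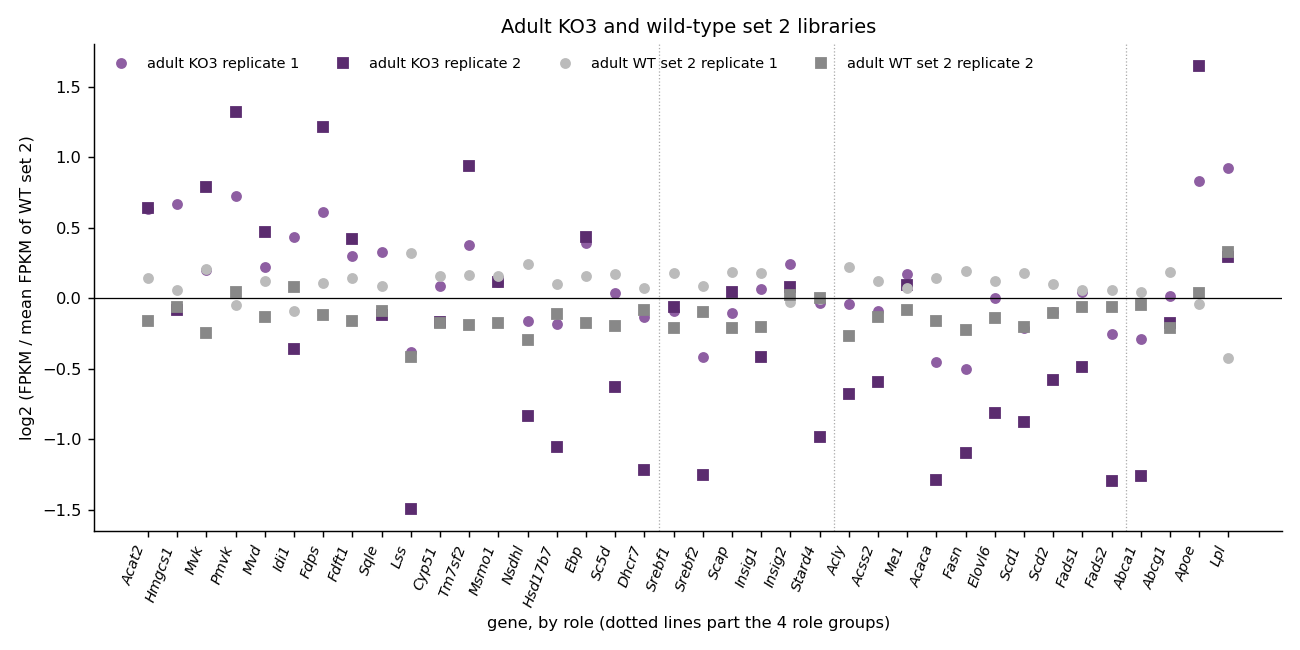
Log2 ratio of each adult KO3 and WT set 2 library to the mean FPKM of WT set 2 (vertical axis), for the 38 genes by role group, with 1 symbol per library. KO3 replicate 2 (dark squares) is the highest or the lowest of the 4 libraries in 30 of the 38 genes, from Apoe and Pmvk at the top to Lss, Fads2 and Acaca at the bottom. WT set 2 replicate 1 is so in 26, WT set 2 replicate 2 in 14 and KO3 replicate 1 in 6. The share over all tested genes was not counted, so these counts are not shown to be particular to the 38 genes.

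The KO3 calls depended on the fit. Without KO3 replicate 2 the sterol calls numbered 2 and the fatty acid calls 0, without KO3 replicate 1 they numbered 12 and 9 (with 6780 of the 14322 tested genes passing), without WT set 2 replicate 1 both were 0, and without WT set 2 replicate 2 both were 1. Without the 3 libraries set apart both were 0, and a fit to the adult libraries alone called 0 of all tested genes, with 4403 at an unadjusted p under 0.05. The other sterol pathway genes gave 2 passing as higher and 2 as lower of 29, and the other fatty acid genes 2 as higher and 1 as lower of 30, against 13.9% and 8.20% of all tested genes, with Npc2 (0.50), Apod (0.86), Fabp3 (0.88) and Fabp5 (0.94) higher and Lrp1 (-0.95) and Gpam (-1.04) lower. With KO3, 2 of 5 red cell genes (Hba-a1 and Hbb-b1) and 2 of 6 microglia markers passed as higher. Dividing cell markers passed as higher in 2 of 6 and astrocyte markers in 1 of 10. Fitted changes were above 0 in 2 dividing cell markers and 3 red cell genes and below 0 in 0 of either. The rest of these 2 lists were at exactly 0 and could not pass, and the median over all tested genes was 0 as well. The 8 neuron markers gave 2 as higher and 1 as lower. The 8 endothelial and pericyte markers gave 1 as higher and 2 as lower. Of 10 myelin markers 0 passed in limma (0 at an unadjusted p under 0.05, against 5636 of the 14322 tested genes). Their part in the KO3 values was not tested.

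The 2 adult wild-type sets, of the same labelled genotype, were set against each other as well. Pmvk had 17.8 and 18.9 FPKM in set 2, against 32.6 and 35.96 FPKM in set 1 (log2 change -0.87, adjusted p = 0.00616). Mvd had 7.95 and 6.64 FPKM in set 2, against 15.8 and 16.5 FPKM in set 1 (-1.05, adjusted p = 0.000453). With Tm7sf2 (-0.76), 3 of 18 sterol enzymes passed as lower in set 2, against 14% of all tested genes passing as lower and 6.84% as higher (2010 and 980 genes, or 1470 and 1631 with quantile scaling). Set 2 lay below set 1 in 11 of the 18 and above it in 1, against 37.8% and 28.8% of all tested genes. Scap (-0.41) and Apoe (891 and 941 FPKM in set 2, 1858 and 2020.1 FPKM in set 1, -1.08, adjusted p = 0.0412, called in 3 of 13 settings) also passed as lower. No fatty acid enzyme passed in limma (2 of 10 at an unadjusted p under 0.05, against 5210 of the 14322 tested genes). Pmvk, Tm7sf2 and Apoe, which were higher in KO3 than in set 2, were lower in set 2 than in set 1. Both comparisons share the set 2 libraries and are not independent. Fdps and Acat2, also higher in KO3, did not pass between the sets. For Pmvk, KO3 stood at 30.4 and 45.7 FPKM and set 1 at 32.6 and 35.96 FPKM.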

How the data were processed

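Poly(A) RNA of 14 mouse brain libraries was sequenced on an Illumina HiSeq 2500, per the labels. The values are FPKM as deposited by the authors in 1 table; CASAVA, Cufflinks 2.2.1, TopHat2 2.1.1 and the build mm9 are listed, without roles, in the submitters' processing notes. The sources used here give no annotation, filter, scaling or strand use. A header word reads FPKM for 10 libraries; the other 4 (adult KO3 and WT set 2) carry none, were taken as FPKM and list 10003 to 10017 genes at 0, against 5301 to 6184 in the others, so each adult KO was compared with its own set. Levels set across the sets (the wild-type sets against each other, and the pooled alternative) carry this difference. A further 2 entries without a gene name were left out. Without counts the depth is unknown, so no counting interval can be given. Within groups, Pearson's r between libraries (across genes) was 0.964 to 0.983.

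The 14322 genes that reached 1 FPKM in 2 or more libraries were tested as log2(FPKM + 1), a scale that understates changes of low genes, with limma 3.58.1 (trend, 2-sided) in R 4.3.3, in 1 fit of 7 group means with 7 residual degrees of freedom. P-values were adjusted over all tested genes (Benjamini-Hochberg, threshold 0.05). The fit was tested on simulated data in which a gene's noise was the same in every group, so groups that differ in spread were not covered. With 2 libraries against 2 an exact permutation test cannot go below p = 0.333, so none is given. Python 3.11.15 and pandas 2.3.3 made the summaries. The members, the other pathway genes and the marker lists were chosen with earlier results of these data known. The rule for named genes took all 38 members, other pathway genes past the threshold against a wild type (up to 6 a comparison), up to 2 markers per list, and Rasgrf1, H19, Igf2, Xist and Ddx3y. Some single markers are not reported here. Acat3, Snap25, Tubb3 and, for the stage comparison, Fabp7, Cyp46a1, Lcat and Acsbg1 were named after their values were seen. Alternatives were pseudocounts of 0.1 and 10, 2 other filters, 2 scalings, pooled adult wild types, a fit per stage, a replicate block and left-out libraries. RefSeq tables (GRCm38.p6) gave synonyms, chromosomes, overlaps and promoters. Of the members, Fdft1, Tm7sf2, Srebf1 and Acaca overlap another protein-coding gene there, so reads may be shared.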

Additional observations from a re-analysis of the deposited data

Results flagged for a closer look

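The KO2 effect against wild type ran in opposite directions at the 2 stages in every library for 5 of the 38 genes, which is why they are listed here. That is 13.2% of the 38 genes, and the same reversal was seen in 18.3% of the 14322 tested genes. The difference (adult minus E19.5, log2) was 0.83 for Acat2, 0.62 for Fdft1, 0.75 for Elovl6, -0.31 for Scap and -1.43 for Apoe. Acat2 had 11.3 and 12.8 FPKM in adult KO2 against 9.78 and 11.3 FPKM in adult WT set 1, and 26.8 and 26.8 FPKM in E19.5 KO2 against 44.7 and 40.5 FPKM in E19.5 WT. Summed with Acat3, with which reads may have been split, the adult libraries overlapped. The sums were 18.46 and 20.64 FPKM in adult KO2 and 18.07 and 18.55 FPKM in adult WT set 1, so the Acat2 reversal was not seen in the sum. Apoe had 1645 and 1712 FPKM in adult KO2 against 1858 and 2020.1 FPKM in adult WT set 1, and 1072 and 1231 FPKM in E19.5 KO2 against 410.2 and 587 FPKM in E19.5 WT. The difference itself was tested by limma, and none of the 5 passed (adjusted p = 0.09 for Acat2, 0.185 for Fdft1, 0.256 for Elovl6, 0.439 for Scap and 0.223 for Apoe).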

How the results depend on the processing

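With 2 libraries a group and unknown depth, counts of calls move more than fold changes do. Of the values per gene under the alternatives, 1462 kept their side of the threshold, 202 lost it, 84 gained it and 0 reversed, and of the values per arm 445 stayed close and 59 moved. The cause was not tested. At E19.5 calls over all tested genes moved too. KO2 against WT gave 183, 250 with a pseudocount of 10, 296 with quantile scaling, 38 with pooled wild types and 364 per stage. KO7 against WT gave 637, with 480 and 850 at pseudocounts of 0.1 and 10. It gave 410 with a filter of 5 FPKM and 145 with pooled wild types. KO7 against KO2 gave 806, 241 with pooled wild types and 1539 per stage. For KO2 against WT at E19.5 the 3 sterol calls became 6 with a pseudocount of 10 (median log2 change -0.40), 7 with quantile scaling, 0 with pooled adult wild types and 10 in the fit per stage, which called 1 fatty acid enzyme, and 0 to 0 with 1 library left out. For KO7 against WT the 2 sterol calls became 0 with a pseudocount of 0.1, 1 with a pseudocount of 10, 1 with a filter of 5 FPKM, 0 with pooled wild types and 0 to 0 with 1 library left out. For KO7 against KO2 the 8 sterol calls became 5 with pooled wild types, 13 in the fit per stage (1 fatty acid call), 4 without the 3 libraries set apart and 1 to 2 with 1 library left out. For adult KO2 the sterol median was 0.11 with pooled wild types, against -0.090. For adult KO3 the 4 sterol calls became 7 with median-of-ratios scaling, 0 in the fit per stage, 0 without the 3 libraries and 0 to 12 with 1 left out, with a median of 0.063 with pooled wild types and 0.021 to 0.32 with 1 library left out. Its 3 fatty acid calls became 1 without a filter, 5 with quantile scaling (median -0.61), 0 in the fit per stage, 0 without the 3 libraries and 0 to 9 with 1 left out (median -0.69 to -0.088). For adult against E19.5 WT the sterol median was -0.69 with a pseudocount of 10, -0.80 with median-of-ratios scaling and -1.24 with pooled wild types, and the 8 fatty acid calls became 5 to 6 with 1 library left out. The KO2 stage median was -0.48 with a pseudocount of 10, and the stage difference of the KO2 effect 0.68 with pooled wild types. Between the wild-type sets 2 fatty acid enzymes passed with median-of-ratios scaling and 2 without the 3 libraries.

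The labels share replicate numbers but give no pairing, and deviations of same-numbered libraries correlated at -0.33 to 0.23. With the replicate number as a block, the sterol calls were 1 for KO2 against WT and 0 for KO7 against WT at E19.5.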
